A study of Homo sapiens with 4 samples.

Results

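The HIST genes are the replication-dependent histone genes, which lie in clusters in the human genome and carried names beginning with HIST1, HIST2, HIST3 or HIST4 when the arrays were designed. Probes whose gene symbol begins in this way were taken, 69 of the 33096 gene probes on each array, and they carry 64 distinct HIST symbols. The mean over the probes of 1 Celera gene ID is called a feature, and there were 63 HIST features among 27739. Of these 63, 52 were kept because their S/N (signal to noise) exceeded 3 on both arrays of mock, of SOX2 knockdown or of both, a limit that 18378 of all features met. The 63 features hold 6 of the linker histone H1 (3 kept), 13 of H2A (11 kept), 17 of H2B (13 kept), 13 of H3 (13 kept) and 14 of H4 (12 kept).

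The series compared cultures of the human glioblastoma cell line LN229 after transient transfection with an siRNA against SOX2 (SOX2 knockdown) or with a control siRNA (mock). SOX2 is an HMG-box transcription factor found in stem cells, and the study asked which genes respond to its loss in these tumour cells. Each group holds 2 arrays from separate transfections, harvested on the third day, and each array was hybridised with labelled RNA made from 250 ng of total RNA on a 1-colour chemiluminescent oligonucleotide platform. The groups differ in the siRNA alone as far as the labels say, the knockdown was transient, and 1 label field, on treatment, gives the colon line SW620 where the titles, descriptions and cell line field name LN229. Of 6 markers of mesenchymal glioma cells, VIM, CD44, SPARC, CAV1 and TNC had S/N over 3 on all 4 arrays and FN1 on 2. Of the colon epithelium markers, the CDH1 and CDH17 probes had S/N over 3 on 0 arrays, TACSTD1 (EPCAM) on 1, CDX2 and LGALS4 on 2, and 1 of the 2 VIL1 probes on all 4.

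Histones are the proteins around which DNA is wound. A nucleosome core holds H2A, H2B, H3 and H4, and H1 binds the linker DNA between cores. The genes of the HIST clusters are transcribed mainly in S phase, when DNA is copied and new nucleosomes are built, and most of their mRNAs end in a stem-loop and not in a poly(A) tail. The stem-loop is bound by SLBP, and the mRNAs are made at nuclear bodies organised by NPAT. Each core class is encoded by many genes, most of them for nearly the same protein. Nearly all H4 genes encode the same protein.

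The promoters are shown for the members with the highest and the lowest fitted log2 change, since these members are the ones the results turn on and since the classes differ in their promoter elements. Of the 64 symbols, 63 matched a RefSeq gene and 58 had a window in RefSeq's promoter table (GRCh38.p14), which covers 250 bases before and 50 after the annotated start. The 170 bases before the start are printed 5′ to 3′ on the strand of the gene, with the letters of 5 motifs (the octamer ATTTGCAT, the CCAAT box, the TATA motif TATAAA, the SOX core CATTGT and an H4 motif, GGTCCG, on either strand) in capitals. The stretches lie at chr1:149832487-149832656, plus strand (HIST2H4, now H4C14), chr6:26204440-26204609, plus strand (HIST1H4E, now H4C5), chr1:149841209-149841378, minus strand (HIST2H3C, now H3C14), chr6:27809881-27810050, plus strand (HIST1H3H, now H3C10), chr6:26156159-26156328, plus strand (HIST1H1E, now H1-4) and chr6:26183591-26183760, plus strand (HIST1H2BE, now H2BC6).
HIST2H4: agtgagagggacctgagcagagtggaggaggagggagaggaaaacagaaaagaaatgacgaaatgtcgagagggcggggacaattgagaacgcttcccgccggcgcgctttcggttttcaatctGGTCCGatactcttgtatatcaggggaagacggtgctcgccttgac
HIST1H4E: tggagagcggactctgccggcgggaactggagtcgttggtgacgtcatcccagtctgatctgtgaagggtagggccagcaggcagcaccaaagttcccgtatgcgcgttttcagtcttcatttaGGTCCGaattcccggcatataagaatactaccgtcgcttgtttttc
HIST2H3C: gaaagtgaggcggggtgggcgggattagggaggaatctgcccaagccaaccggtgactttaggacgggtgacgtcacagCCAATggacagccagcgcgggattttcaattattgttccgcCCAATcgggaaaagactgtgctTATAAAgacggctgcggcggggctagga
HIST1H3H: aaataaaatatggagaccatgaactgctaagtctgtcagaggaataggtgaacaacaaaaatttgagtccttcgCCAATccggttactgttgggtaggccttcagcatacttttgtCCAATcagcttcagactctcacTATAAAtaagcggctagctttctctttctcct
HIST1H1E: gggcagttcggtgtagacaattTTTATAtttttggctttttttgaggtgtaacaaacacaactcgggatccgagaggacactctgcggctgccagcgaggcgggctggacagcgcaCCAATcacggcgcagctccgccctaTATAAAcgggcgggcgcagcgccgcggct
HIST1H2BE: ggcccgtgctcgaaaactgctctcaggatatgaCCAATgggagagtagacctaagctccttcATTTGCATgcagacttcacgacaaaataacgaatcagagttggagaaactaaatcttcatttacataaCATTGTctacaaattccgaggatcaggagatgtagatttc

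The H4 stretches hold GGTCCG 46 bases before the start and neither CCAAT nor TATAAA. The H3 stretches hold 2 copies of CCAAT and a TATAAA, and the HIST1H1E stretch holds CCAAT 54 bases and TATAAA 29 bases before the start. HIST1H2BE, the lowest member, holds the octamer ATTTGCAT, which is known from H2B promoters, and CATTGT, a core bound by SOX proteins. Over whole windows, the octamer was found in 12 of 16 H2B and 11 of 15 H2A promoters, in 1 of 9 H3 promoters and in 0 of 6 H1 and 0 of 12 H4 promoters, against 1.8% of all 27305 promoters. CCAAT was found in 49 of 58 HIST promoters (35.7% of all promoters), and H4 was the class with few, 3 of 12. TATAAA was found in 38 of 58 (12% of all). GGTCCG, a motif added after the H4 promoters had been read, was found in 11 of 12 H4 promoters and 11.2% of all. CATTGT was found in 7 of 58 HIST promoters, 12.1% against 11% of all promoters. Of the 58 windows 21 overlap another HIST window, so H2A and H2B genes that face each other share bases, and HIST2H4 has a copy, H4C15, whose 300-base window differs at 0 positions. A match of letters is not a bound site, and no binding data were used here.

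SOX2, the target of the siRNA, had a scaled signal of 0.454 on mock array 1, 0.682 on mock array 2, and 0.204 and 0.145 after SOX2 knockdown. A scaled signal is the signal divided by the 75th percentile of its array, and log2 changes are the mean log2 signal of SOX2 knockdown minus that of mock. The log2 change of SOX2 was -1.69 (SE 0.28), with an adjusted p of 0.114 (limma, Benjamini-Hochberg over 18378 features). The arrays had S/N over 3 for 63.5% to 68.9% of the gene probes. With 2 arrays per group an exact permutation test cannot go below a two-sided p of 0.333, so single values are given with the fit across all features.

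HIST genes were mostly higher after SOX2 knockdown, with median log2 changes of the classes from 0.20 (H3) to 0.93 (H1). The H1 and H3 ends of this range are not firm. Without mock replicate 1 the medians were 0.54 for H1, 0.34 for H3 and 0.57 for H4, without mock replicate 2 they were 1.01, 0.11 and 1.04, and over all features with no filter 0.16, 0.20 and 0.83. The H1 and H4 medians without mock replicate 1 and with no filter include dim features that the main setting left out. Differences between classes were not tested. Of the 52 kept features 49 had a log2 change above 0, where 50.3% of all kept features did. In 42 of the 52 both SOX2 knockdown arrays lay above both mock arrays (21.6% of all kept features), in 3 both lay below (25.7%) and in 7 the groups overlapped. The mean signal was over 1.5-fold higher for 21 (5.08% of all) and over 2-fold higher for 5 (1.47% of all). These 5 were HIST1H1E, HIST1H3H (gene ID hCG1640464.3), HIST2H3C, HIST2H4 and HIST1H4E, and 0 were over 2-fold lower (0.909% of all). In HIST1H3H, HIST2H3C and HIST1H4E both mock arrays had S/N under 3 (1.43 to 2.52), which is called not above background here. Of the 46 HIST features with S/N over 3 on all 4 arrays 2 were over 2-fold higher, as were 146 of the 16908 features in all under that filter. The median log2 change of the 52 was 0.47, against 0.0018 over all features kept. The members lower after SOX2 knockdown were HIST1H2BE, HIST2H2BE and HIST1H3C. In RNA of whole cultures, more cells that transcribe histone genes and more histone RNA per cell cannot be told apart.

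A filter on S/N can keep a gene through the group where it is high. Of the 52 kept, 46 passed through both groups, 6 through SOX2 knockdown alone and 0 through mock alone. The 6 that passed through SOX2 knockdown alone were HIST1H1D, HIST1H2AG, HIST1H2BA, HIST1H3H (hCG1640464.3), HIST2H3C and HIST1H4E. All 6 were above 0, the direction this filter favours, and of the 46 others 43 were above 0 and 3 below. All 6 are also among the features with both knockdown arrays above both mock arrays. All but HIST1H1D are among those over 1.5-fold higher. Over all 63 features, dim ones included, 56 were above 0 and 7 below. The 11 features not kept were HIST1H1A, HIST1H1B and HIST1H1T, HIST1H2AA and the shared HIST1H2AI and HIST1H2AH probe, HIST1H2BC, HIST1H2BI, HIST1H2BK and HIST1H2BO, and HIST1H4A and HIST1H4G. Of these 7 were above 0 and 4 below, and for 5 of the 63 features no array had S/N over 3.

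In limma 0 of the 52 HIST features reached an adjusted p under 0.05, nor did any other feature (0 of 18378, or 0%). At an unadjusted p under 0.05, limma gave 27 of the 52 as higher (8.12% of all features kept) and 1, HIST1H2BE, as lower (9.07%). The higher ones include HIST1H2AG, HIST1H2BA, HIST1H3H (hCG1640464.3), HIST2H3C and HIST1H4E, which passed the S/N filter through SOX2 knockdown alone. At an adjusted p under 0.1 there were 2, HIST1H4E and HIST2H4 (0.903% of all). The call at 0.05 rested on the scaling and on the variance model. With the array median in place of the 75th percentile limma called 8 HIST features and 669 features in all. The 8 were HIST1H1C, HIST1H1E, HIST1H3H (hCG1640464.3), HIST2H3C, HIST1H4B, HIST1H4E, HIST1H4I and HIST2H4, all higher after SOX2 knockdown. With a variance trend it called HIST1H1C and HIST2H4.

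**Figure D1:**
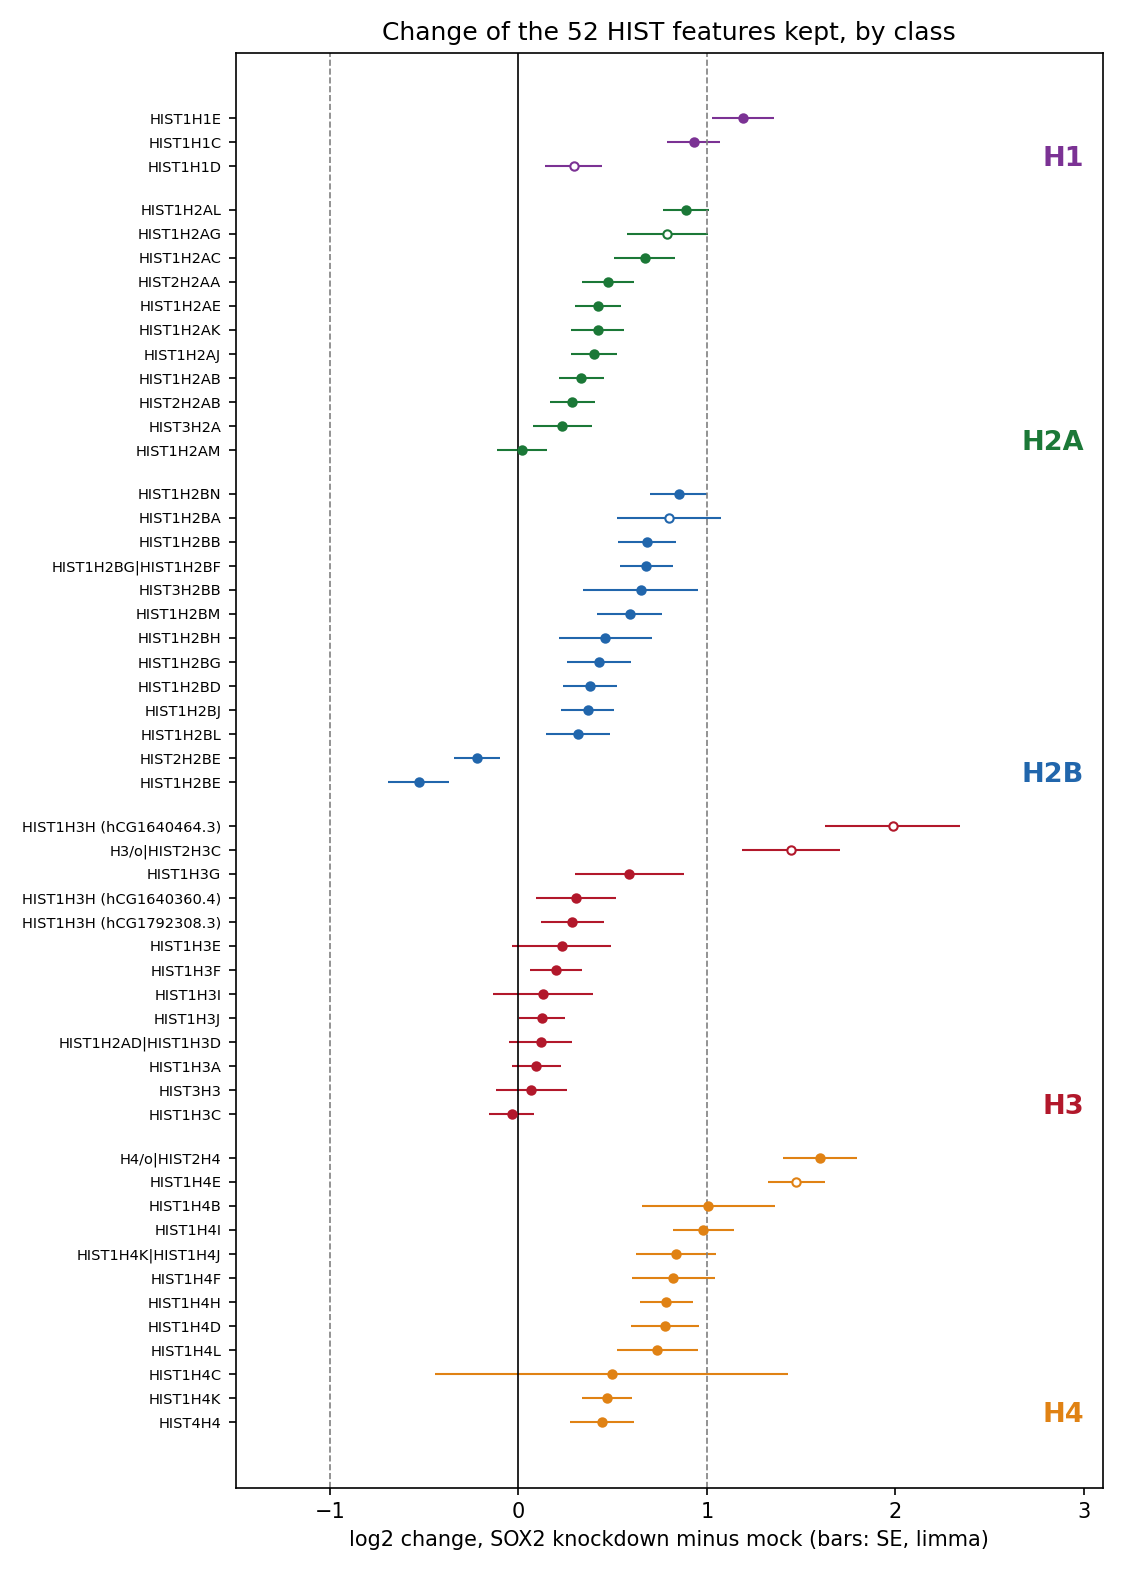
Log2 change (SOX2 knockdown minus mock, x axis) of each of the 52 kept HIST features, 1 row per feature, coloured by class and ordered by change within it. Bars are the SE from limma, open circles are features without S/N over 3 on all 4 arrays, and dashed lines mark a log2 change of 1 and -1. All but 3 points lie right of 0, 4 of the open circles (HIST1H2BA, HIST1H3H, HIST2H3C and HIST1H4E) stand for mock signals not above background, and the H4 median (0.80) lies right of the H3 median (0.20).

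The linker histone H1 was measured by 3 features with a median log2 change of 0.93, which moved to 0.54 when mock replicate 1 was left out, to 0.64 without SOX2 knockdown replicate 1 and to 0.16 over all 6 H1 features. HIST1H1E had scaled signals of 0.0819 and 0.0905 in mock and 0.177 and 0.219 after SOX2 knockdown. Both knockdown arrays lay above both mock arrays, with a ratio of means of 2.29 and a log2 change of 1.19 (SE 0.17, adjusted p 0.101 in limma). HIST1H1C, the brightest H1 feature, had 1.11 and 1.24 in mock and 2.34 and 2.12 after SOX2 knockdown, a log2 change of 0.93 (SE 0.14, adjusted p 0.103 in limma). The groups were again apart and the knockdown arrays close together. HIST1H1D was near the S/N limit, at 0.0257 and 0.0283 in mock and 0.0304 and 0.0359 after SOX2 knockdown, a log2 change of 0.29 (SE 0.15), and with a floor of 0.05 its values have no order. HIST1H1B, another linker histone gene of somatic cells, had S/N over 3 on 0 arrays, and the testis gene HIST1H1T on 1, so their levels were not detectable here.

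H2A and H2B pair as dimers in the nucleosome, and their genes often lie head to head. The 11 kept H2A features all had a log2 change above 0, with a median of 0.42. In 10 of them both knockdown arrays lay above both mock arrays (21.6% of all kept features). The highest was HIST1H2AL, with 0.157 and 0.149 in mock and 0.284 and 0.283 after SOX2 knockdown, a log2 change of 0.89 (SE 0.12, adjusted p 0.101 in limma). The lowest was HIST1H2AM, with 0.281 and 0.318 in mock and 0.301 and 0.306 after SOX2 knockdown. Its groups overlapped, and its log2 change of 0.02 (SE 0.13) had the other sign with median scaling (-0.012). HIST1H2AB, the brightest H2A feature, had 2.37 and 2.39 in mock and 3.04 and 2.96 after SOX2 knockdown, a log2 change of 0.33 (SE 0.12). Its change was small beside that of HIST1H2AL, but its replicates were close and the groups were apart. With normexp background correction the order turned, at 0.36 for HIST1H2AB and 0.21 for HIST1H2AL.

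The 13 kept H2B features had a median log2 change of 0.46, with 11 above 0 and 2 below. Both knockdown arrays lay above both mock arrays in 11 (21.6% of all kept features) and below both in 2 (25.7%). HIST1H2BN had 0.0835 and 0.0962 in mock and 0.152 and 0.172 after SOX2 knockdown, the highest log2 change of the class at 0.85 (SE 0.15, adjusted p 0.121 in limma). HIST1H2BE, both the brightest and the lowest of the class, had 2.84 and 3.30 in mock and 2.31 and 1.95 after SOX2 knockdown. Both of its knockdown arrays lay below both mock arrays, and the log2 change was -0.53 (SE 0.16, adjusted p 0.228 in limma). HIST1H2BA, known as a testis H2B gene, was above background only after SOX2 knockdown, so only a bound of its fold can be given. The bound puts every dim signal at the height where its S/N on the same array would be 3, and it was added once values were known. It is a ratio of geometric means and does not carry the spread between arrays. HIST1H2BA had 0.12 and 0.0806 in mock and 0.146 and 0.201 after SOX2 knockdown, and its bound was 1.34-fold (adjusted p 0.264 in limma). With its dim signals so raised the groups overlap, so a higher level is not settled for it.

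The HIST2H2BE feature, the other H2B feature below 0, averages a probe listed as RP11-196G18.6 with its own. The HIST2H2BE probe alone had 0.978 and 1.12 in mock and 0.889 and 0.755 after SOX2 knockdown, so it too was lower on both knockdown arrays. HIST1H2BC, which was not kept, had 0.0257 and 0.0184 in mock and 0.0101 and 0.0114 after SOX2 knockdown with S/N over 3 on 1 array. It was the member past 2-fold lower where the filter was relaxed.

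The H3 class had a median log2 change of 0.20, with 0.34 without mock replicate 1 and 0.11 without mock replicate 2. Of its 13 features, all kept, 12 had a log2 change above 0. Both knockdown arrays lay above both mock arrays in 7 (21.6% of all kept features) and below both in 1 (25.7%), and the groups overlapped in 5. HIST1H3H (hCG1640464.3) had 0.0128 and 0.0255 in mock and 0.0767 and 0.067 after SOX2 knockdown. The mock signals were not above background, so it was at least 2.41-fold higher by the same bound. The fitted log2 change of 1.99 (SE 0.36, adjusted p 0.122 in limma) rests on the dim signals as measured and was 0.52 with a floor of 0.05. The probe annotated to H3/o and HIST2H3C had 0.0401 and 0.0636 in mock and 0.13 and 0.145 after SOX2 knockdown. Here too mock was not above background, and it was at least 1.72-fold higher (fitted log2 change 1.45, SE 0.26, adjusted p 0.121 in limma).

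The symbol HIST1H3H stands on 3 features, and these did not give the same value. The feature hCG1792308.3 had a log2 change of 0.29 (SE 0.17) and hCG1640360.4 one of 0.31 (SE 0.21), both with S/N over 3 on all 4 arrays, and only hCG1640464.3 carries an accession of the RefSeq gene. The brightest H3 feature was HIST1H3C, with 11.7 and 11.5 in mock and 11.3 and 11.4 after SOX2 knockdown. Its log2 change of -0.04 (SE 0.12) was the lowest of the class and smaller than its error, and its sign turned with normexp background correction (0.00104). The other 8 H3 features lay between 0.07 and 0.59.

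H4 had the highest median of the core histones, a log2 change of 0.80. All 12 kept features were above 0, 9 of them over 1.5-fold by the means (5.08% of all kept features). In 11 both knockdown arrays lay above both mock arrays (21.6% of all). HIST2H4, annotated to H4/o as well, had 0.372 and 0.502 in mock and 1.40 and 1.23 after SOX2 knockdown, a ratio of 3.01 and a log2 change of 1.60 (SE 0.20, adjusted p 0.098 in limma). Its groups were apart by more than its replicates, and it was the member over 2-fold under normexp too. HIST1H4E had 0.0449 and 0.041 in mock and 0.13 and 0.109 after SOX2 knockdown. Its mock signals were not above background, so it was at least 1.89-fold higher, with a fitted log2 change of 1.48 (SE 0.15, adjusted p 0.0838 in limma).

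HIST4H4, the single gene of its cluster, on chromosome 12, had the lowest change of the class. Its signals were 3.25 and 3.66 in mock and 4.20 and 5.24 after SOX2 knockdown, a log2 change of 0.44 (SE 0.17). HIST1H4C, the brightest H4 feature, had 19.7 and 84.0 in mock and 30.6 and 107 after SOX2 knockdown. Its probe carries scanner flag 4 on both arrays numbered 2 and no flag on the others. The meaning of this flag is not given in the sources used here. It stood on no probe with a signal under 253 and on 43.6% of the probe values over 300, and its part in the values was not tested. Its values went by replicate number and not by group, with both arrays numbered 2 far above both numbered 1. Its log2 change of 0.49 (SE 0.94) became -0.55 without mock replicate 1 and -0.41 without SOX2 knockdown replicate 2. The feature of hCG28201.2, which averages probes of CDH1 and RPL23A and was singled out after its values were seen, went by replicate number in the same way, at 13.9 and 49.2 in mock and 22.0 and 46.7 after SOX2 knockdown.

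**Figure D2:**
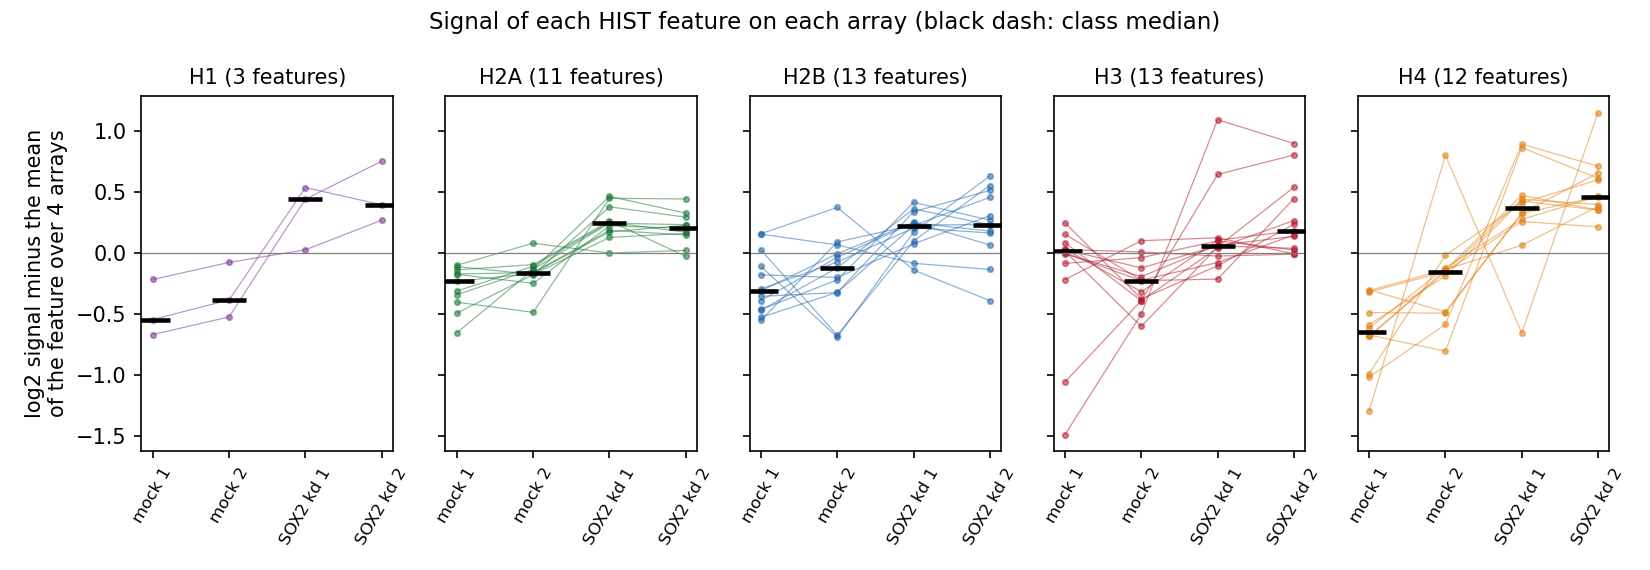
Log2 signal of each kept HIST feature on each array minus its mean over the 4 arrays (y axis), by class, with arrays on the x axis (kd, knockdown). Thin lines join the values of 1 feature and black dashes are class medians. For H2A the medians are -0.23 and -0.16 in mock and 0.24 and 0.20 after SOX2 knockdown, while for H3 the first mock array (0.01) lies near the knockdown arrays (0.06 and 0.18).

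Background correction lowered the log2 changes of the 4 features that were dim in mock, and not of these alone. With normexp on the raw readings the log2 changes of HIST1H3H (hCG1640464.3), HIST1H4E, HIST2H3C and HIST1H2BA were 0.18, 0.08, 0.42 and 0.09. HIST1H2AL, with S/N over 3 on all 4 arrays, went from 0.89 to 0.21, and HIST1H1E from 1.19 to 0.72. The log2 change of HIST2H4 remained 1.27 and that of HIST1H1C 0.82.

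The spread between replicates was set beside the change for each class. The median difference between the mock arrays (mock 2 minus mock 1) was 0.42 for H4, 0.22 for H2B, 0.15 for H1, 0.07 for H2A and -0.19 for H3. Between the SOX2 knockdown arrays it lay between -0.04 and 0.24. For H4 the 4 differences of a knockdown array minus a mock array had medians of 0.95, 0.60, 1.08 and 0.57, so the lowest was above the difference between the mock arrays. For H1 they ran from 0.78 to 1.08, for H2A from 0.36 to 0.46 and for H2B from 0.28 to 0.57. Each lowest value was again above the larger replicate difference of its class. For H3 they were 0.04, 0.26, 0.15 and 0.50, and the lowest was smaller in size than the difference between its mock arrays. Mock 1 was the lowest array for 32 of the 52 features and for 9 of the 12 H4 features.

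**Figure D3:**
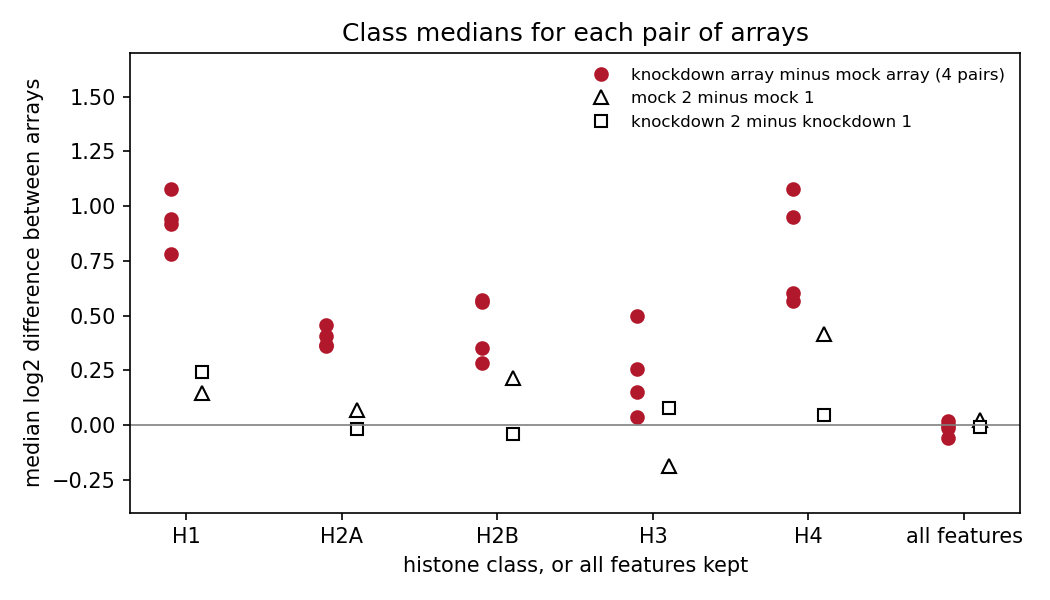
Median log2 difference between arrays (y axis) for each histone class and for all features kept (x axis). Filled circles are the 4 pairs of a knockdown and a mock array, triangles the mock replicates and squares the knockdown replicates. The circles lie above both replicate marks in H1, H2A, H2B and H4, and for H3 1 circle (0.04) lies below the knockdown replicate mark (0.08).

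Several probes cannot be given to 1 gene. Of the 69 probes 7 are annotated to several symbols, 5 of them to several HIST symbols, and 6 features average more than 1 probe. The probe of HIST1H4K and HIST1H4J had 5.68 and 8.18 in mock and 12.4 and 12.0 after SOX2 knockdown, a log2 change of 0.84 (SE 0.21), and the probe annotated to HIST1H4K alone had a log2 change of 0.47 (SE 0.13). Both were higher on both knockdown arrays. The probe of HIST1H2BG and HIST1H2BF had a log2 change of 0.68 (SE 0.14) and that of HIST1H2BG alone one of 0.43 (SE 0.17). The feature of HIST2H2AA and HIST2H2AC averages 3 probes that did not give alike values. The shared probe went from 4.50 and 5.03 to 6.49 and 6.65, 1 of the other probes from 0.997 and 1.35 to 1.83 and 1.56, and the dim probe from 0.0947 and 0.0721 to 0.0724 and 0.111, where the groups overlap. The probe annotated to both HIST1H2AD and HIST1H3D was at background on every array, so that feature rests on the HIST1H3D probe and was counted with H3. Without the probes of several HIST genes, 47 of 50 kept features were above 0 and the same count, 5, was over 2-fold higher. The probe sequences were not used here, so cross-hybridisation among similar genes was not tested.

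Most HIST1 genes lie in 1 stretch of chromosome 6, between genes of other families. In chromosomal order, members of different classes alternate, and features next to each other took different values. HIST1H2BE (-0.53) stands between HIST1H2BD (0.38) and HIST1H4D (0.78), and HIST1H3C (-0.04) between HIST1H2BB (0.68) and HIST1H1C (0.93). The other coding genes of RefSeq between the HIST1 genes numbered 19, and 14 of their 18 features were kept. Of these 14, 7 were above 0 and 7 below, with a median log2 change of -0.01. Past 2-fold were 0 of them, where 1.47% of all kept features were higher and 0.909% lower. No feature of the arrays passed an adjusted p of 0.05 in limma, so that threshold cannot set these genes apart. The lowest was BTN3A2, a butyrophilin gene, at -0.87 (SE 0.13, adjusted p 0.102 in limma). BTN3A3 (-0.65, SE 0.18) and BTN3A1 (-0.60, SE 0.15) came next. At an unadjusted p under 0.05 in limma 0 of the 14 were higher (8.12% of all kept features) and 3, these BTN3A genes, were lower (9.07%). PRSS16, whose mock signals were not above background, had 0.172 and 0.099 in mock and 0.221 and 0.196 after SOX2 knockdown, and of the features measured on all 4 arrays a ZNF184 feature (hCG25305.3) was highest at 0.40 (SE 0.15).

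**Figure D4:**
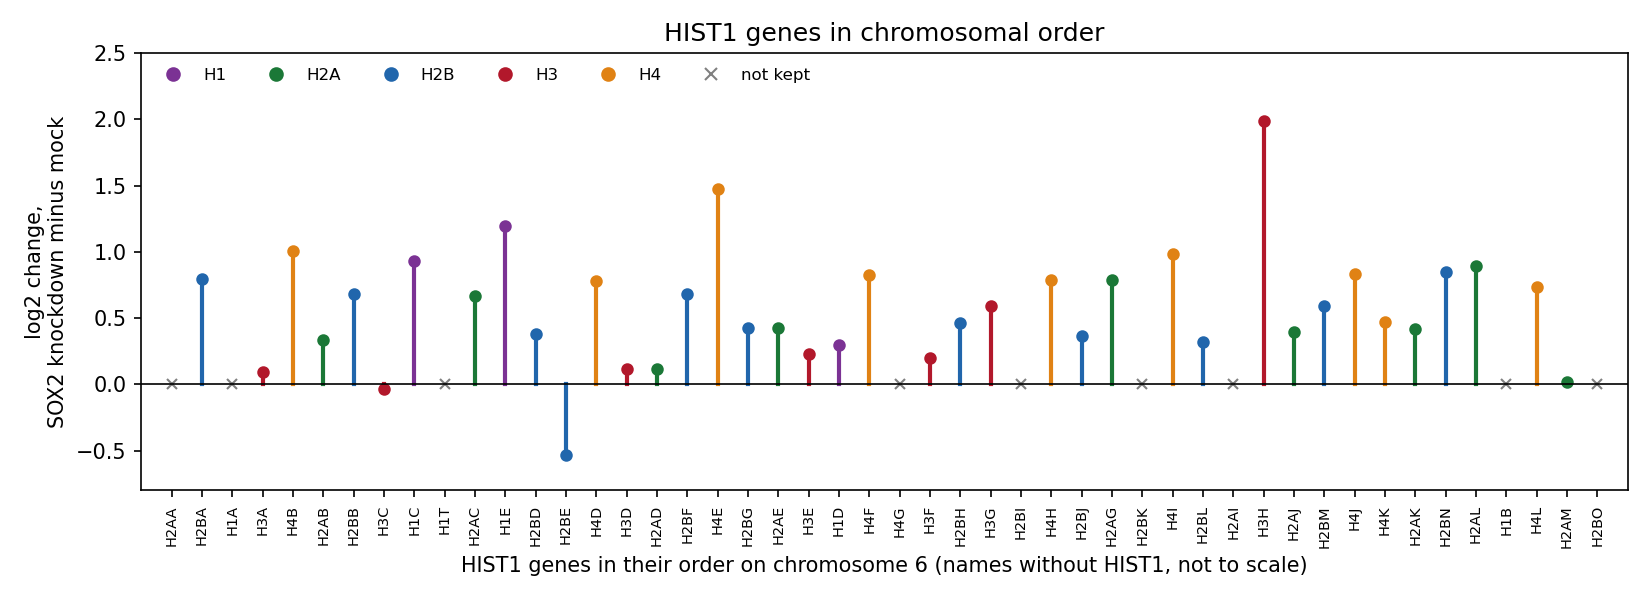
Log2 change (SOX2 knockdown minus mock, y axis) of the HIST1 genes with a promoter window, in their order on chromosome 6 (x axis, not to scale), coloured by class. Crosses are genes whose feature was not kept, and a feature shared by 2 genes is drawn at each. H4 genes are above 0 along the whole order, from HIST1H4B (1.01) to HIST1H4L (0.74), and HIST1H2BE (-0.53) stands alone well below 0.

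Other genes of histone supply were read from lists beside the HIST genes. The histone variants outside the clusters had 11 features, all kept, 7 above 0 and 4 below, with a median log2 change of 0.08. H2AFY2 is listed at the floor of 0.01 on both mock arrays and had 0.0145 and 0.0147 after SOX2 knockdown, so no change is given for it. The counts of this list include it as higher. Of the variants with S/N over 3 on all 4 arrays the highest was H1F0, a linker histone, at 0.39 (SE 0.20), and the lowest H3F3A, one of the H3.3 genes, at -0.14 (SE 0.13). Factors of histone gene transcription and histone mRNA processing had 15 features, 8 above 0 and 7 below, with a median of 0.02. LSM11, a subunit of the U7 particle that cleaves histone pre-mRNA, was highest, with S/N over 3 on 3 arrays and with 0.173 and 0.12 in mock and 0.26 and 0.208 after SOX2 knockdown (0.69, SE 0.24). NPAT, the coactivator of histone genes, was lowest at -0.22 (SE 0.20), and SLBP stood at -0.17 (SE 0.16), with overlapping groups in both.

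Histone chaperones, which escort new histones to DNA, had 13 features, 8 above 0 and 5 below, with a median of 0.07. They ran from RBBP4, a subunit of the CAF-1 complex, at -0.29 (SE 0.13) to ASF1A, an H3 and H4 chaperone, at 0.48 (SE 0.15). The S-phase list, of DNA replication and nucleotide synthesis genes, had 24 features, 14 above 0 and 10 below, with a median of 0.10. CCNA2, which encodes cyclin A2, was highest, with 1.14 and 1.04 in mock and 1.73 and 1.67 after SOX2 knockdown (0.64, SE 0.13, adjusted p 0.135 in limma). MCM6, a subunit of the replicative helicase, was lowest, with 2.12 and 2.19 in mock and 1.65 and 1.37 after SOX2 knockdown (-0.52, SE 0.15, adjusted p 0.209 in limma). PCNA, the sliding clamp of replication, stood at -0.13 (SE 0.13). PRIM1 shares its feature with NACA, so its value is not its own. None of the 4 lists held a feature past 2-fold, where 1.47% of all kept features were higher and 0.909% lower. No feature of the arrays passed an adjusted p of 0.05 (limma, Benjamini-Hochberg), so none of the lists did. At an unadjusted p under 0.05 in limma the lists, of 11, 15, 13 and 24 features, held 1, 2, 2 and 2 higher (8.12% of all), where the 1 variant was H2AFY2, at the floor in mock. They held 0, 0, 0 and 1 lower (9.07% of all). In 5, 4, 6 and 11 features of the lists in turn both knockdown arrays lay above both mock arrays (21.6% of all kept features). Both lay below in 1, 2, 3 and 5 (25.7%). The share of these lists and of the cell cycle in the HIST values was not tested.

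**Figure D5:**
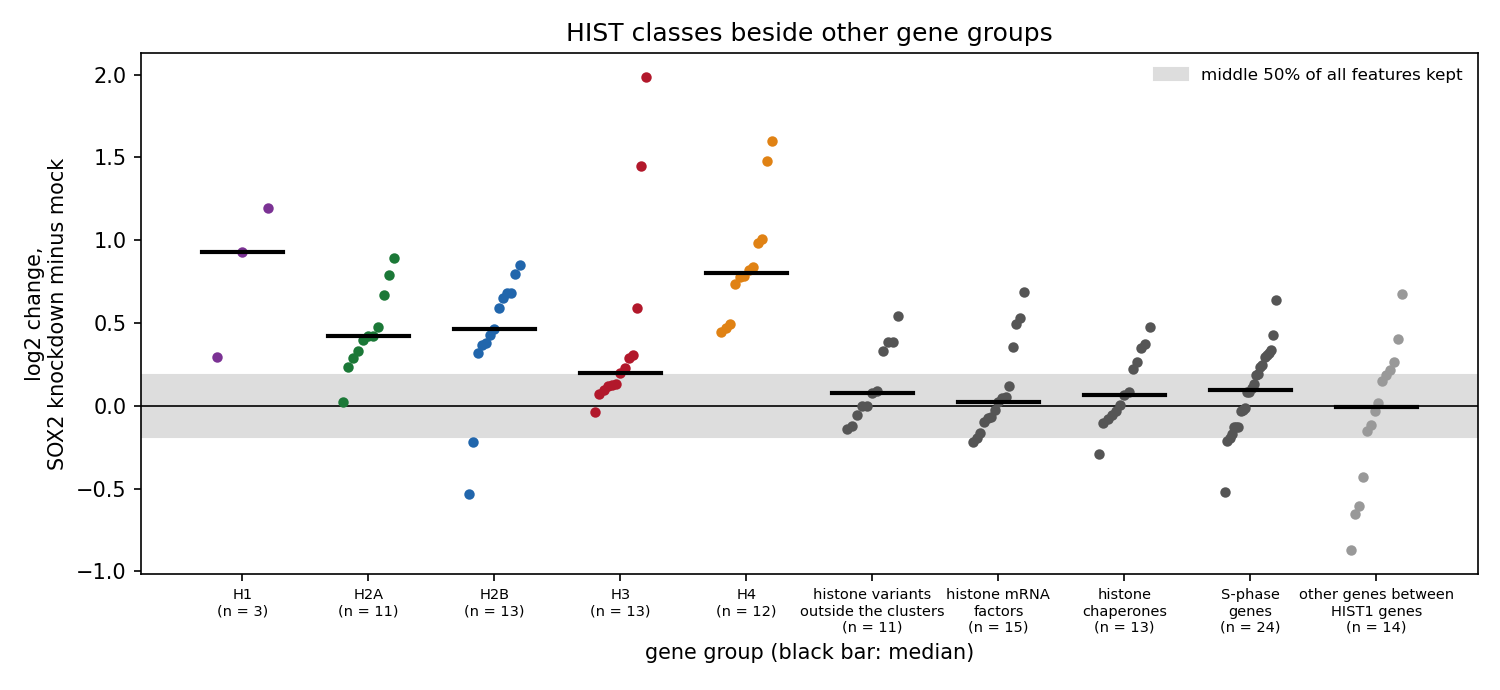
Log2 change (SOX2 knockdown minus mock, y axis) of kept features in the 5 HIST classes, 4 gene lists and the other genes between HIST1 genes (x axis). Points are features, black bars medians, and the grey band holds the middle 50% of all features kept (-0.19 to 0.19). The medians of the 4 lists (0.02 to 0.10) lie inside the band and those of all HIST classes (0.20 to 0.93) above it.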

How the data were processed

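Labelled RNA of 2 mock and 2 SOX2 knockdown samples of LN229 cells was read on Applied Biosystems Human Genome Survey arrays. The deposited scanner files give a normalized signal, a linear intensity, for each probe. Per the file headers they also give its S/N, used here as a score. The authors' own processed table, which holds a linear ratio for every probe, and the raw and assay-normalized intensities in the deposited files served as alternatives.

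Groups came from the source names. Control spots and 210 probes with a flag of 5000 or more were left out (0 HIST probes). Signal and S/N were averaged by gene ID, divided by the array's 75th percentile (6.12 to 7.07), floored at 0.01 and put on a log2 scale. Features were compared by a 2-fold ratio of means, as in the study's methods, and by limma 3.58.1 (R 4.3.3, no block, two-sided, tested on simulated data). The p-values and SEs rest on the spread between 2 transfections a group. Limma draws the variance of each feature toward one shared over all features, so an SE is not that feature's own spread alone.

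Named are features past 2-fold, the highest, lowest and brightest of each class, those dim in 1 group, and each list's extremes. Others are said to be chosen after their values were seen, given as probes of shared features or as chromosomal neighbours. The members and lists were chosen with earlier results of these data known. The labels do not give the primer used to copy RNA, which bears on mRNAs without a poly(A) tail. The number of arrays limits the precision.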

Additional observations from a re-analysis of the deposited data

How the results depend on the processing

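Alternatives changed 1 choice at a time. The assay-normalized signal, the bound for dim signals and the crossed pairing were chosen after seeing the data. The direction of every class median and of the all-HIST median stayed above 0 under each alternative run. By share, the HIST features above 0 were fewest with normexp and without SOX2 knockdown replicate 2, 45 of 52 in each. They were most without SOX2 knockdown replicate 1, 53 of 56. The median log2 change of all features kept moved the same way, at -0.041, -0.045 and 0.057 under these settings in turn. With S/N over 3 on all 4 arrays the HIST features above 0 numbered 43 of 46 (8427 of 16908 features in all). With no filter they numbered 56 of 63 (13581 of 27739 in all).

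Limma called 0 HIST features in the main setting and 8 with median scaling, with no further scaling and with the series table, and 2 with a variance trend. Of all features it called 0, 669, 650, 639 and 240 under these settings in turn. The cause was not tested. With normexp 1 HIST feature (HIST2H4) was over 2-fold higher, of 112 in all (5 of 271 in the main setting), and the medians were 0.29 for all HIST, 0.72 for H1, 0.26 for H2A and 0.35 for H2B. With S/N over 3 on all 4 arrays 2 were over 2-fold higher (HIST1H1E and HIST2H4), of 146 in all, and the H1 median was 1.06, over fewer features by construction. With a mean S/N over 3, 1 feature (HIST1H2BC) was over 2-fold lower, of 240 in all. With no S/N filter this 1 feature was again lower, of 507 in all among 27739 features, and the H1 median was 0.16. A 1.5-fold cutoff gave 21 higher features of 934 in all. A 3-fold cutoff gave 2 of 80 in all, HIST2H4 and HIST1H3H, the latter with mock not above background.

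Leaving out 1 array, with the lone array of a group assumed to vary like the others, gave 5 to 11 features over 2-fold higher and 0 to 1 lower. The 11 came without mock replicate 2 (378 higher in all), and 9 without SOX2 knockdown replicate 1 (641 in all). The other settings gave 7 of 513 without mock replicate 1 and 5 of 354 without SOX2 knockdown replicate 2. Median log2 changes then ran from 0.43 to 0.54 for all HIST, 0.54 to 1.01 for H1, 0.36 to 0.43 for H2A, 0.39 to 0.53 for H2B, 0.11 to 0.34 for H3 and 0.57 to 1.04 for H4. The median over all features kept ran from -0.06 to 0.06. How many features in all were kept is not given for these settings, so the counts over 2-fold are not shares. The lowest H1 value (0.54) and the highest H3 value (0.34) came without mock replicate 1. This H1 value takes in HIST1H1T, a dim feature that passed the filter on mock array 2 alone. The lowest H3 value (0.11) came without mock replicate 2. Limma called 0 HIST features in each.

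Of single genes, HIST1H2AM turned to -0.012 with median scaling, with no further scaling (-0.0088) and with the series table (-0.0052), to -0.064 with normexp and to -0.0695 without mock replicate 1. HIST1H3C turned to 0.00104 with normexp. HIST1H4C turned to -0.55 without mock replicate 1 and to -0.41 without SOX2 knockdown replicate 2. HIST1H1D had a log2 change of 0, with no direction, with a floor of 0.05. Of the other single-gene values, 254 kept their direction and side of the threshold and 20 moved past it.

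Deviations of arrays with the same replicate number correlated at -0.50 over 18378 features, so the numbers were not taken to pair the samples. With the replicate number as a block limma called 0 HIST features and the class medians were unchanged (all HIST 0.47). With the crossed pairing as a block it called 0 HIST features and 0 features in all.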
